A study of Homo sapiens with 6 samples.

Results

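Genes of the ATP-dependent chromatin remodeling complexes were described in U87-MG, a human glioblastoma cell line. The members were the 59 genes of a list of INO80, SRCAP, SWI/SNF, ISWI and CHD complex subunits, chosen by symbol and not by value, and all 59 were found among the 61806 genes of the table. They were sorted by complex into 12 INO80 genes, 5 SRCAP or TIP60 genes, 3 genes shared by these complexes and others, 19 SWI/SNF genes, 7 ISWI genes, 6 CHD genes and 7 genes of the CHD complex NuRD. RNA sequencing covered 6 libraries of total RNA, 3 of the negative control (NC), whose genotype is labelled wildtype, and 3 labelled GRIK1 siRNA, called siRNA-labelled here, whose genotype is labelled as a GRIK1 knockdown. GRIK1 encodes a subunit of the kainate-type glutamate receptor, and the comparison asked which genes differ when it is reduced. The sources name both siRNA and shRNA for the knockdown and give no dose or time after transfection. The study designed several numbered siRNA sequences and writes that it went on with the first of them. The labels do not say what the numbers 1 to 3 of the siRNA-labelled libraries mark, and they were used as replicate numbers. Nothing states that the libraries came from separate cultures, so the p-values measure only the spread between these samples, which may be technical.

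Remodelers use the energy of ATP to slide, evict or exchange nucleosomes, and each complex is built around an ATPase of the SNF2 family. SWI/SNF (BAF) complexes open regulatory DNA and their subunits are often mutated in cancer, ISWI complexes space nucleosomes evenly, CHD proteins act in transcribed and repressed chromatin, and INO80, SRCAP and TIP60 handle the histone variant H2A.Z. Many subunits come as paralogs that replace each other, so the balance between paralogs sets which form of a complex a cell can build.

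The labels were checked before the members. The counts of GRIK1, the targeted gene, were 18, 9 and 8 in NC, and 15, 20 and 20 in siRNA-labelled ones, so its counts were not lower in the latter libraries. Its mean was 0.287 FPKM, under the filter of 0.5 FPKM used for testing, and so few reads can hardly show or refute a knockdown. The study reports an efficient knockdown of GRIK1 in U87-MG cells. Total counts ranged from 11099909 to 14006968. NC library 3 stood apart. Ribosomal protein genes took 9.37% of its counts against 4.79% to 5.50% in the other 5 libraries, and genes of at least 5000 exonic bases took 52.9% against 57.3% to 59.9%. Its correlation with the others, across genes on log2(CPM + 1), was 0.955 to 0.971, against at least 0.986 among the other 5. The common dispersion, which edgeR fits as the spread between libraries of a group, fell from 0.0391 to 0.00298 without it, so each result is given with it and without it. Of the listed glioma markers only VIM (825 to 1076 FPKM) and CD44 (50.8 to 71.6 FPKM) were high. CHI3L1 was 1.70 to 3.53 FPKM, OLIG2 0.41 to 0.83 FPKM and NES 0.21 to 0.69 FPKM, while SOX2, GFAP and S100B stayed at or under 0.28 FPKM. Summed endothelial markers reached at most 0.08 FPKM, epithelial markers 1.67 to 3.03 FPKM and leukocyte markers 2.33 to 4.21 FPKM, nearly all of the last from CD68, with PTPRC at most at 0.03 FPKM and CD3E at 0.

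The RNA of most remodelers was present in these cells. Of the 59 members, 57 had a mean of at least 0.5 FPKM (fragments scaled by exonic length and library total) over the 6 libraries and were tested. The 2 others were DPF1 (0.265 FPKM) and DPF3 (0.455 FPKM), both PHD finger subunits of BAF complexes. DPF1 was 1.60, 1.44 and 1.05 CPM (counts scaled by library total and TMM) in NC and 1.41, 1.00 and 1.19 CPM in the siRNA-labelled libraries, and DPF3 was 6.64 to 10.2 CPM over the 6 libraries. Per length, the highest mean levels were those of SS18 (29.4 FPKM), a BAF subunit, SMARCA1 (23.9 FPKM), an ISWI ATPase, and YY1 (22.3 FPKM), a zinc finger factor of the INO80 complex. The lowest tested levels were those of SRCAP (0.827 FPKM) and CHD7 (1.33 FPKM), both large ATPases. In a bulk sample, fewer cells of a type and less RNA per cell cannot be told apart.

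**Figure D1:**
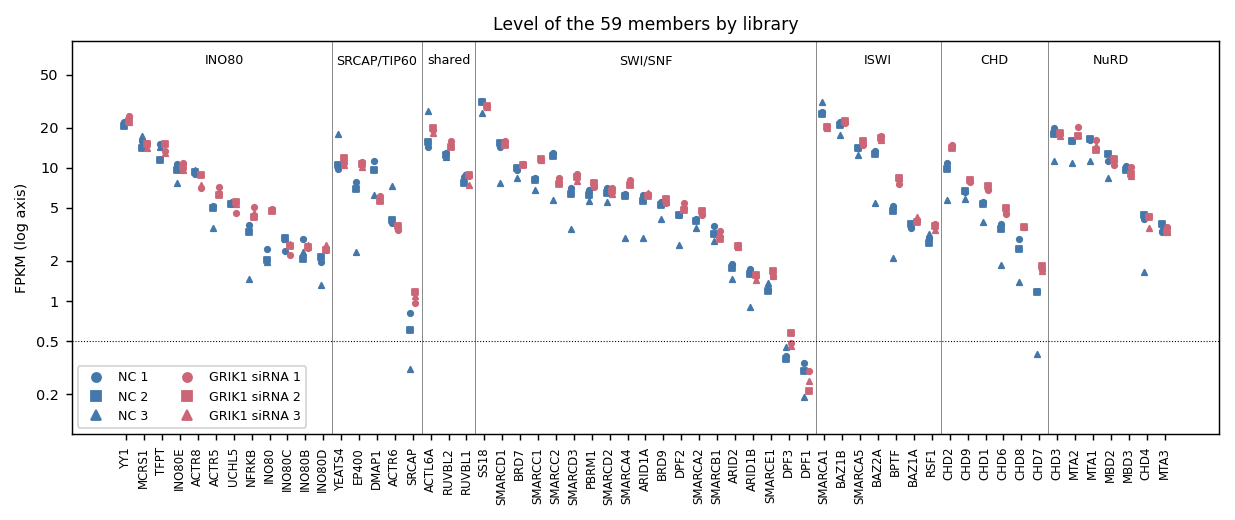
FPKM of each of the 59 members in each library on a log axis, grouped by complex, with NC in blue, siRNA-labelled libraries in red, a marker shape for each library number and a dotted line at the filter on the mean. SS18 (29.4 FPKM over all 6 libraries) has the highest mean, and the means of DPF1 (0.265 FPKM) and DPF3 (0.455 FPKM) lie under the filter of 0.5 FPKM.

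With all 6 libraries, INO80 was higher in the siRNA-labelled libraries and no other member passed the test, edgeR's quasi-likelihood test with Benjamini-Hochberg adjustment over all tested genes at 0.05. Of 15870 tested genes, 1.61% were called higher and 1.48% lower (3.09% in all), against 1 and 0 of the 57 members. At an unadjusted p under 0.05, 16 members (of 57) were higher and 3 were lower, where 12.0% and 13.2% of all tested genes were. DESeq2 called 6 members higher (INO80, SMARCC1, ARID2, BPTF, CHD1 and CHD2; background 5.43%) and 2 lower (DMAP1 and SMARCA1; background 5.14%). Without NC library 3, edgeR called 23 members higher and 4 lower, or 40.4% and 7.02% of 57, where 16.9% and 18.3% of all tested genes were called (35.2% in all). DESeq2 without that library called 19 and 4 (backgrounds 13.0% and 13.5%). The edgeR counts were 14 and 4 when NC library 2 was left out as well, where 11.0% and 11.5% of all tested genes were called. That fit has a single NC library, which is assumed to vary like the siRNA-labelled libraries. The median log2 fold change of the members was 0.10 with and 0.10 without NC library 3, against -0.02 and 0.01 over all tested genes. In 25 members every siRNA-labelled library was above every NC library (background 19.4%) and in 5 it was below (background 19.0%), so 52.6% did not overlap against 38.5% of all tested genes. Asking for an absolute log2 fold change over 1 beside the test left INO80 alone in both fits, where the backgrounds were 1.41% with NC library 3 and 3.09% without it.

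**Figure D2:**
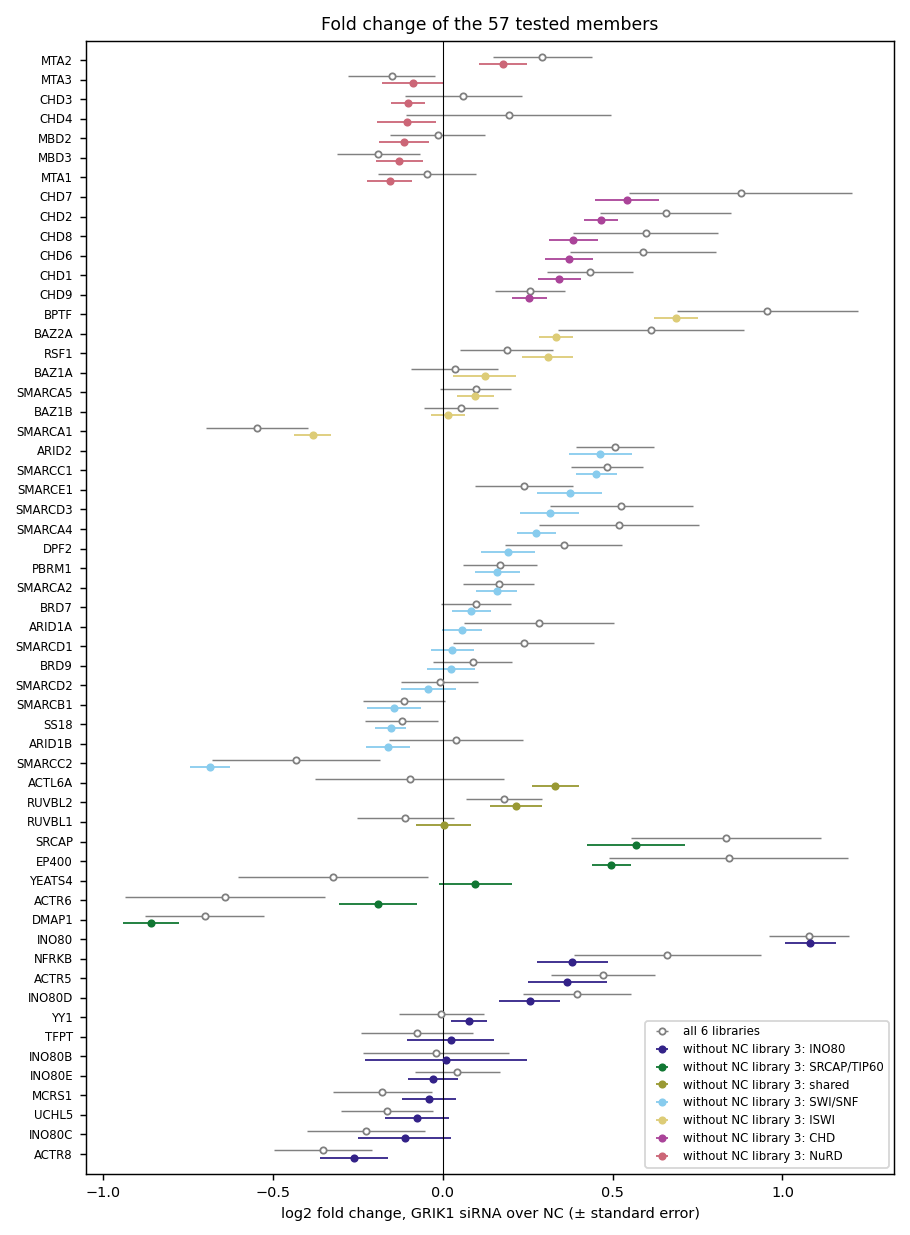
Log2 fold change of each of the 57 tested members, siRNA-labelled libraries over NC, with its standard error (bars), fitted with all 6 libraries (open grey points) and without NC library 3 (points coloured by complex). INO80 (1.08 in both fits) lies farthest to the higher side and DMAP1 (-0.70, or -0.86 without NC library 3) farthest to the lower side.

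INO80 is the ATPase and scaffold of the INO80 complex, which moves nucleosomes and acts in transcription, replication and DNA repair. The gene (ENSG00000128908) spans 40978880 to 41116280 of chromosome 15 (GRCh38, minus strand) and has 17829 exonic bases. Its CPM values were 43.1, 36.2 and 39.8 in NC and 85.0, 82.1 and 84.5 in the siRNA-labelled libraries. The groups did not overlap, and NC library 3 lay between the other two NC libraries, at 100.4% of their mean. The log2 fold change was 1.08 (SE 0.12, edgeR adjusted p = 0.0191), or 2.11-fold, and 1.08 without NC library 3 (SE 0.07, edgeR adjusted p = 9.1e-09). With a per-library correction for exonic length it was 0.89 (edgeR adjusted p = 0.0294), and 0.95 without NC library 3 (edgeR adjusted p = 3.05e-09). Both corrected values are called but lie under the log2 fold change of 1 asked for above. Per length the level was 2.15 ± 0.26 FPKM in NC and 4.82 ± 0.09 FPKM in the siRNA-labelled libraries (SD, n = 3 each), and INO80 ranked 45 of the 59 members by mean FPKM. The call was lost when any 1 of the other 5 libraries was left out (edgeR adjusted p from 0.0636 without NC library 1 to 0.194 without siRNA library 2), with a log2 fold change of 1.02 to 1.14. In those 5 fits 0 of all tested genes were called.

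The other subunits of the INO80 complex had smaller fold changes. Without NC library 3, 4 of 12 tested INO80 complex genes were called higher and 0 lower, beside 16.9% and 18.3% of all tested genes, and the median log2 fold change over the 12 was -0.01, or 0.02 without that library. The 3 called beside INO80 were NFRKB (log2 fold change 0.38), ACTR5 (0.37), an actin-related subunit, and INO80D (0.26), which shares 1699 bases with INO80D-AS1 (mean 47.2 counts against 382) on the other strand. ACTR5 and INO80D lost the call with DESeq2 without NC library 3, and INO80D also with a correction for exonic length. The lowest fold change of the 12 was that of ACTR8, at 36.0, 37.1 and 43.7 CPM in NC and 27.5, 34.8 and 29.1 CPM in the siRNA-labelled libraries, with a log2 fold change of -0.35 (edgeR adjusted p = 0.184) or -0.26 without NC library 3 (edgeR adjusted p = 0.0523). The groups of ACTR8 did not overlap, but it was not called. YY1 was 188, 176 and 213 CPM in NC and 204, 187 and 185 CPM in the siRNA-labelled libraries, overlapping groups. Of the 3 subunits shared with other complexes, the AAA+ ATPase RUVBL2 (0.22) and the actin-related ACTL6A (0.33) were called higher without NC library 3, and RUVBL2 lost the call with DESeq2. RUVBL1, the partner of RUVBL2, had a log2 fold change of 0.00 in that fit. It shares 6928 bases with SEC61A1 (mean 11280 counts against 724) on the other strand, whose log2 fold change there was 0.35. ACTL6A was 111 CPM in NC library 3 and 52.2 to 71.5 CPM elsewhere, and its log2 fold change was -0.10 with that library.

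Genes of the SRCAP and TIP60 complexes, which load H2A.Z and acetylate histones, were called in both directions without NC library 3, with SRCAP and EP400 higher and DMAP1 lower. SRCAP, the ATPase that places H2A.Z, was 11.0, 8.35 and 4.83 CPM in NC and 12.7, 15.5 and 14.7 CPM in the siRNA-labelled libraries. Its log2 fold change was 0.83 (edgeR adjusted p = 0.132), and 0.57 without NC library 3 (edgeR adjusted p = 0.00525). EP400, the ATPase of the TIP60 complex (ENSG00000183495, plus strand of chromosome 12 from 131949942 to 132080460, GRCh38), was 140, 125 and 47.9 CPM in NC and 195, 187 and 179 CPM in the siRNA-labelled libraries. NC library 3 was thus at 36.1% of the other NC libraries, and the groups did not overlap with or without it. Its log2 fold change was 0.84 (SE 0.35, edgeR adjusted p = 0.190) and 0.50 without NC library 3 (SE 0.06, edgeR adjusted p = 3.59e-06). EP400P1, a partial copy that starts 3815 bases past the end of EP400 on the same strand, was 49.1, 47.5 and 15.2 CPM in NC and 95.7, 83.5 and 92.5 CPM in the siRNA-labelled libraries. Reads that match both genes could be split between them, and how the counting treated such reads is not given in the sources used here, so the EP400 values are uncertain.

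DMAP1 encodes a subunit shared by the SRCAP and TIP60 complexes (ENSG00000178028, plus strand of chromosome 1 from 44213455 to 44220681, GRCh38). Its levels were 62.4, 53.5 and 39.7 CPM in NC and 33.3, 30.9 and 31.6 CPM in the siRNA-labelled libraries, with every one of the latter below every NC library. The log2 fold change was -0.70 (SE 0.18, edgeR adjusted p = 0.0747), and -0.86 without NC library 3 (SE 0.08, edgeR adjusted p = 4.83e-07). The reader subunit YEATS4 was not called in either fit, and NC library 3 held 36.1 CPM of it against 17.4 to 20.6 CPM in the other 5 libraries. ACTR6, an actin-related SRCAP subunit, was likewise 31.3 CPM there and 12.7 to 15.4 CPM elsewhere.

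Sequence upstream of the annotated start is shown for 4 members. INO80 was the member called with all libraries, EP400 and DMAP1 belong to 1 complex and differed in direction, and SMARCA1 was the ATPase gene called lower without NC library 3. They come from RefSeq on GRCh38.p14, read 5′ to 3′ along the gene and cut to the bases before the outermost annotated start, at chr15:41116355-41116530 (minus strand), chr12:131949692-131949919 (plus), chr1:44213221-44213454 (plus) and chrX:129523501-129523740 (minus). Capitals mark matches to CCGGAAG, the core of an ETS factor motif (written CTTCCGG on the other strand), and to CCAAT, the motif of NF-Y, and no other letters are in capitals.
INO80: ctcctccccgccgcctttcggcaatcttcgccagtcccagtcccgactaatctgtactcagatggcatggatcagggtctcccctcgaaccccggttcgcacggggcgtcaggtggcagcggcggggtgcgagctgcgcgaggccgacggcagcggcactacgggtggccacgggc
EP400: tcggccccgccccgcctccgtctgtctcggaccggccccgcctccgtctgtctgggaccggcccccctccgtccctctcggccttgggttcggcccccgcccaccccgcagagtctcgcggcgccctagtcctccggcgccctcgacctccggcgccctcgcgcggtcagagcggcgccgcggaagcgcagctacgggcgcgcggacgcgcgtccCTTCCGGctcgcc
DMAP1: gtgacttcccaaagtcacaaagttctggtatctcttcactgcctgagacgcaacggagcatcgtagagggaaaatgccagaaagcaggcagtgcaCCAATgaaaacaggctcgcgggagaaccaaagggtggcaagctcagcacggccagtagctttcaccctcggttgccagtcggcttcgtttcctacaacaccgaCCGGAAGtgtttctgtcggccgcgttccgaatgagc
SMARCA1: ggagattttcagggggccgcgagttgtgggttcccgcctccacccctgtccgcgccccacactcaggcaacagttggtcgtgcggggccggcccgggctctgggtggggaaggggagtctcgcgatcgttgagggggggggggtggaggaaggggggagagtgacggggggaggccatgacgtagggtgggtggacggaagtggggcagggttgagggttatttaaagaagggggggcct

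The printed stretches of INO80 and SMARCA1 hold no match to the 4 motifs searched, which are these 2 together with the NRF1 motif, read as GCGC and TGCGC with any 1 base between them, and AAGATGG, the core of the YY1 motif, on both strands. Over the full RefSeq windows (250 bases before to 50 after a start), 51 of the 59 members were matched by symbol. CCGGAAG was present in 10 of these 51 (19.6%) and in 12.2% of 27305 genes, CCAAT in 19 (37.3%) and 39.7%, the NRF1 motif in 11 (21.6%) and 6.98%, and AAGATGG in 8 (15.7%) and 7.11%. Of the 17 matched members called higher without NC library 3, 2 held CCGGAAG, 7 CCAAT, 5 the NRF1 motif and 5 AAGATGG. The 27305 genes were not limited to those tested, while nearly all members passed the filter of 0.5 FPKM, so these shares compare unlike sets. A match describes letters only, and binding was not measured.

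The ATPases are the motors of these complexes. Of the 15 ATPase genes, 11 were called higher and SMARCA1 lower without NC library 3, beside backgrounds of 16.9% and 18.3%, and their median log2 fold change was 0.52, or 0.34 without that library. In 12 of them every siRNA-labelled library lay above every NC library, and in SMARCA1 below, where 19.4% and 19.0% of all tested genes did, and 37.1% of genes of at least 10000 exonic bases lay above. The ATPase genes are long (median 15479 exonic bases), and exonic length differed with the calls. Of the 23 tested members with at least 10000 exonic bases, 17 were called higher and 0 lower without NC library 3, while 36.5% and 16.0% of the 1877 tested genes of that length were. Of the 34 shorter members, 6 were called higher and 4 lower, against 14.3% and 18.6% of 13992 shorter genes. NC library 3 was at or under -0.5 (log2, against the mean of the other 2 NC libraries) for 13 of the 23 long members. The share was 29.7% over all tested genes of that length. The median was -0.67 over the long members and -0.13 over all long genes. With a per-library correction for exonic length and without NC library 3, 20 members were called higher and 7 lower (backgrounds 17.2% and 18.3%), and 19 of these 20 were also among the 23 called higher without the correction. Among the ATPase genes, CHD9 and SMARCA2 lost the call with this correction, and CHD3 was called lower. A part of length beyond this correction was not tested.

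**Figure D3:**
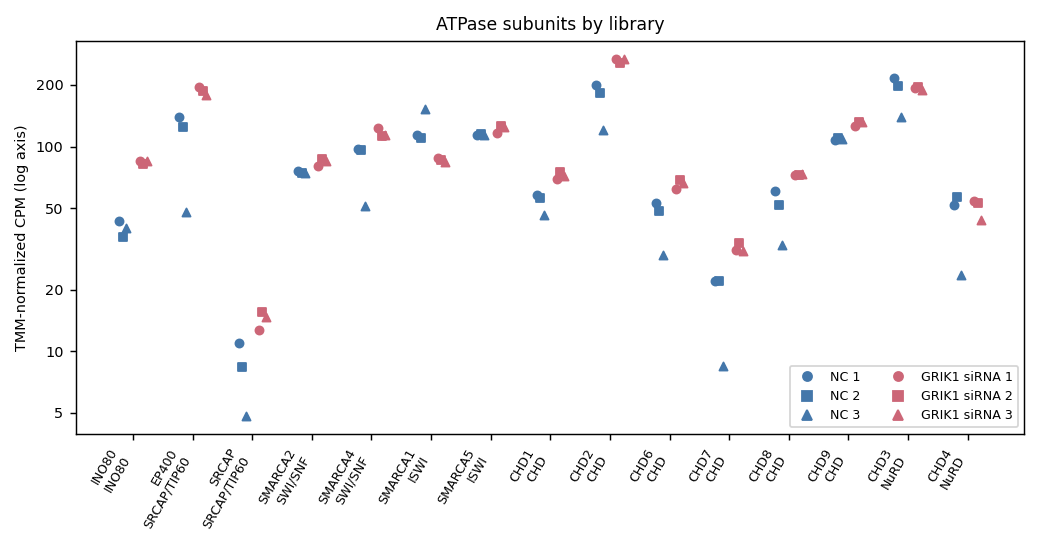
TMM-normalized CPM of the 15 ATPase genes (log axis) in each library, with NC in blue, siRNA-labelled libraries in red and triangles for library 3 of each group. In 12 of the 15 every siRNA-labelled library lies above every NC library, and SMARCA1 lies below.

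**Figure D4:**
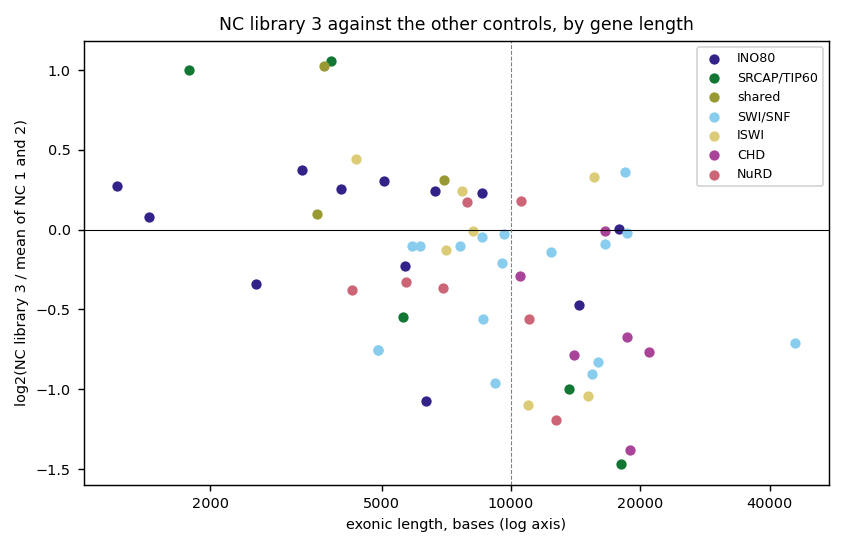
Log2 ratio of NC library 3 to the mean of NC libraries 1 and 2 against exonic length (bases, log axis), 1 point for each tested member, coloured by complex, with a dashed line at 10000 bases. Members of at least 10000 bases have a median of -0.67, and shorter members a median of -0.04.

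The 6 CHD genes outside NuRD were all higher without NC library 3. These chromodomain helicases read methylated histones or act as developmental remodelers, and CHD7 and CHD8 are mutated in developmental syndromes. With all libraries 0 of the 6 (CHD1, CHD2, CHD6, CHD7, CHD8 and CHD9) were called, and without NC library 3 edgeR called 6, all higher. The background there was 16.9%, and 36.5% among genes of at least 10000 exonic bases. CHD2 had the highest CPM, at 199, 184 and 120 in NC and 268, 256 and 269 in the siRNA-labelled libraries, and a log2 fold change of 0.66 (edgeR adjusted p = 0.103), or 0.47 without NC library 3 (SE 0.05, edgeR adjusted p = 1.44e-06). CHD7 was 22.1, 21.9 and 8.45 CPM in NC and 31.3, 33.9 and 31.0 CPM in the siRNA-labelled libraries. NC library 3 was far below the other NC libraries for CHD7, whose log2 fold change was 0.88 (edgeR adjusted p = 0.161), or 0.54 without it (edgeR adjusted p = 0.00023). CHD1 was 57.7, 55.9 and 46.4 CPM in NC and 69.5, 74.7 and 71.9 CPM in the siRNA-labelled libraries. CHD6 was 53.0, 48.6 and 29.4 CPM in NC and 61.8, 68.5 and 66.7 CPM. CHD8 was 60.4, 51.5 and 32.9 CPM in NC and 72.9, 73.0 and 73.2 CPM. NC library 3 was the lowest library for each of these. CHD9 had the smallest fold change, at 108, 110 and 108 CPM in NC and 127, 131 and 132 CPM, with a log2 fold change of 0.26 in both fits. In all 6 the siRNA-labelled libraries lay above NC without overlap, beside the 37.1% given for genes of at least 10000 exonic bases, a length that all 6 reach. Their median log2 fold change was 0.59, and 0.38 without NC library 3, where CHD1 (0.34), CHD6 (0.37) and CHD8 (0.38) lay close to it. With the length correction and without NC library 3, 5 of the 6 were called higher, and CHD9 was not.

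NuRD joins the ATPases CHD3 and CHD4 with histone deacetylases and represses transcription. None of the 7 NuRD genes among the members was called by edgeR in either fit, 0 had an unadjusted p under 0.05 with all libraries, and DESeq2 with all libraries called 0. CHD4 was 51.6, 56.4 and 23.6 CPM in NC and 54.0, 52.8 and 43.6 CPM in the siRNA-labelled libraries, and its log2 fold change went from 0.19 to -0.11 without NC library 3. CHD3, the higher of the pair per length in all 6 libraries, was 216, 197 and 140 CPM in NC and 194, 195 and 188 CPM, with log2 fold changes of 0.06 and -0.10. Without NC library 3 the scaffolds MTA1 (-0.16), MTA2 (0.18) and MTA3 (-0.09) and the methyl-CpG proteins MBD2 (-0.11) and MBD3 (-0.13) lay within 0.2 of 0 on the log2 scale. With the length correction in that fit, MTA2 was called higher and CHD3 lower. Outside the members, 7 other genes listed under CHD or NuRD were tested. Without NC library 3, 0 of those were called higher and 2 lower, beside 16.9% and 18.3% of all tested genes. Whether NuRD and the other CHD genes differ from each other was not tested.

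SWI/SNF complexes are assembled from an ATPase, core scaffolds and subunits that differ between forms. Of 17 tested SWI/SNF genes, 6 were called higher and 2 lower without NC library 3 (backgrounds 16.9% and 18.3%), 0 with it (1.61% and 1.48%), and the median log2 fold change was 0.17, or 0.08. Among the ATPases, SMARCA4 (BRG1) was 97.1, 95.7 and 51.4 CPM in NC and 123, 113 and 114 CPM in the siRNA-labelled libraries, a log2 fold change of 0.52 (edgeR adjusted p = 0.217) or 0.28 (edgeR adjusted p = 0.00103). SMARCA2 (BRM) was 75.6, 74.6 and 74.0 CPM in NC and 80.2, 86.7 and 84.5 CPM, a log2 fold change of 0.17 (-0.03 with the length correction) or 0.16, and its call without NC library 3 (edgeR adjusted p = 0.0479) was lost with DESeq2. The core scaffold SMARCC1 (BAF155; ENSG00000173473, minus strand of chromosome 3 from 47585269 to 47782106, GRCh38) was 63.4, 61.4 and 58.2 CPM in NC and 84.8, 86.0 and 85.0 CPM, with little spread within either group. Its log2 fold change was 0.48 (SE 0.11, edgeR adjusted p = 0.0557), and 0.45 without NC library 3 (SE 0.06, edgeR adjusted p = 1.46e-05).

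SMARCC2 (BAF170), the paralog of SMARCC1, had the opposite sign. It was 118, 112 and 59.1 CPM in NC and 74.4, 67.7 and 72.1 CPM in the siRNA-labelled libraries, so NC library 3 was the lowest of the 6. The log2 fold change was -0.43 (SE 0.25, edgeR adjusted p = 0.308), and -0.69 without NC library 3 (SE 0.06, edgeR adjusted p = 1.27e-07). SMARCC2 (ENSG00000139613, minus strand of chromosome 12 from 56162359 to 56189567, GRCh38) shares 1138 bases with MYL6 on the other strand. MYL6 had a mean of 8842 counts against 1017 for SMARCC2, and whether counting used strand is not given in the sources used here, so reads of the pair might not be told apart. The log2 fold change of MYL6 was -0.43, or 0.10 once NC library 3 was left out. ARID2 of the PBAF complex was 23.2, 22 and 20.5 CPM in NC and 31.6, 31.0 and 30.7 CPM, a log2 fold change of 0.51 (edgeR adjusted p = 0.0618) or 0.46. The BAF subunits ARID1A (98.4, 90.2 and 53.0 CPM in NC and 98.1, 95.3 and 101 CPM) and ARID1B (79.1, 72.7 and 46.5 CPM and 68.2, 70.4 and 65.1 CPM) were not called by edgeR in either fit, though ARID1B was called lower with the length correction and without NC library 3 (log2 fold change -0.40, edgeR adjusted p = 4.96e-05). SMARCE1 (0.37) and SMARCD3 (0.31) completed the 6 called higher without NC library 3, and SMARCD3 shares 2216 bases with CHPF2 (mean 2798 counts against 428) on the other strand. SMARCB1, SMARCD1, SMARCD2, DPF2, PBRM1, BRD7 and BRD9 were not called by edgeR in either fit, with log2 fold changes of -0.14 to 0.19 without NC library 3, and SMARCB1 was called lower there with the length correction. SMARCE1 was not called with it. PBRM1 shares 4762 bases with GNL3 (mean 1764 counts against 819) on the other strand. SS18 was 194, 193 and 180 CPM in NC and 174, 175 and 173 CPM, a log2 fold change of -0.12 or, without NC library 3, -0.15 (edgeR adjusted p = 0.0146).

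ISWI complexes run on the ATPases SMARCA1 and SMARCA5, of which SMARCA1 was called lower without NC library 3. SMARCA1 (SNF2L; ENSG00000102038, minus strand of chromosome X from 129446501 to 129523500, GRCh38) was 114, 110 and 153 CPM in NC and 87.4, 86.1 and 84.4 CPM in the siRNA-labelled libraries, lower in each of the latter. Its log2 fold change was -0.55 (SE 0.15, edgeR adjusted p = 0.0908) or -0.38 without NC library 3 (SE 0.05, edgeR adjusted p = 3.29e-05). SMARCA5 (SNF2H) was 114, 115 and 114 CPM in NC and 117, 127 and 124 CPM and was not called in either fit. BPTF, the large histone-reading subunit of NURF, was 76.8, 72.0 and 36.2 CPM in NC and 111, 124 and 124 CPM. Its log2 fold change was 0.96 (SE 0.27, edgeR adjusted p = 0.0926) or 0.69 without NC library 3 (SE 0.06, edgeR adjusted p = 3.28e-07). BAZ2A, the large subunit of the nucleolar complex NoRC, was 145, 140 and 66.6 CPM in NC and 184, 179 and 174 CPM, with a log2 fold change of 0.33 without NC library 3, and it shares 598 bases with RBMS2 (mean 415 counts against 1838) on the other strand. RSF1 was also called higher in that fit (0.31), while BAZ1A (26.7 to 33.1 CPM over the 6 libraries) and BAZ1B (139 to 156 CPM) were not called.

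The balance within paralog pairs was read as the log2 ratio of FPKM in each library, which no scaling between libraries changes. For 5 of 9 pairs the groups did not overlap, a share that was not computed for other gene pairs. Among all tested genes, taken singly and in normalized CPM, 38.5% did not overlap. With 3 libraries against 3 a two-sided exact permutation test cannot give a p under 0.1, and that value was reached for each of the 5 (0.18 after Benjamini-Hochberg adjustment over the 9). MTA1 over MTA2, both NuRD scaffolds, had the least spread of all, at 0.02, 0.04 and 0.04 in NC and -0.31, -0.34 and -0.27 in the siRNA-labelled libraries, a difference of -0.34. NC library 3 did not stand apart in this pair. SMARCC1 over SMARCC2 was -0.62, -0.60 and 0.25 in NC and 0.46, 0.61 and 0.51 in the siRNA-labelled libraries. Per length, SMARCC2 was thus the higher of the pair in NC libraries 1 and 2, and SMARCC1 in the other 4 libraries. In NC library 3 this order rests on the division by length, as the counts were 724 for SMARCC1 and 735 for SMARCC2. The SMARCC2 counts carry the limit given above for MYL6. The difference in this log2 ratio was 0.85, or 1.14 against NC libraries 1 and 2. SMARCA5 over SMARCA1 was -0.90, -0.84 and -1.32 in NC and -0.48, -0.34 and -0.34 in the siRNA-labelled libraries, a difference of 0.63, or 0.48 without NC library 3. SMARCA1 remained the higher of the pair per length in all 6 libraries.

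The other pairs without overlap were SMARCA4 over SMARCA2, with a difference of 0.41, and ARID1A over ARID1B, with a difference of 0.26. SMARCA4 over SMARCA2 was 0.63 and 0.62 in NC libraries 1 and 2, -0.26 in NC library 3 and 0.88, 0.65 and 0.70 in the siRNA-labelled libraries, so the difference against NC libraries 1 and 2 was 0.12. The 4 other pairs overlapped, at 0.29 for SMARCD1 over SMARCD2 (p = 0.3), -0.02 for BAZ1A over BAZ1B (p = 1), 0.20 for CHD4 over CHD3 (p = 0.7) and 0.18 for MBD2 over MBD3 (p = 0.6), by the same exact permutation test.

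**Figure D5:**
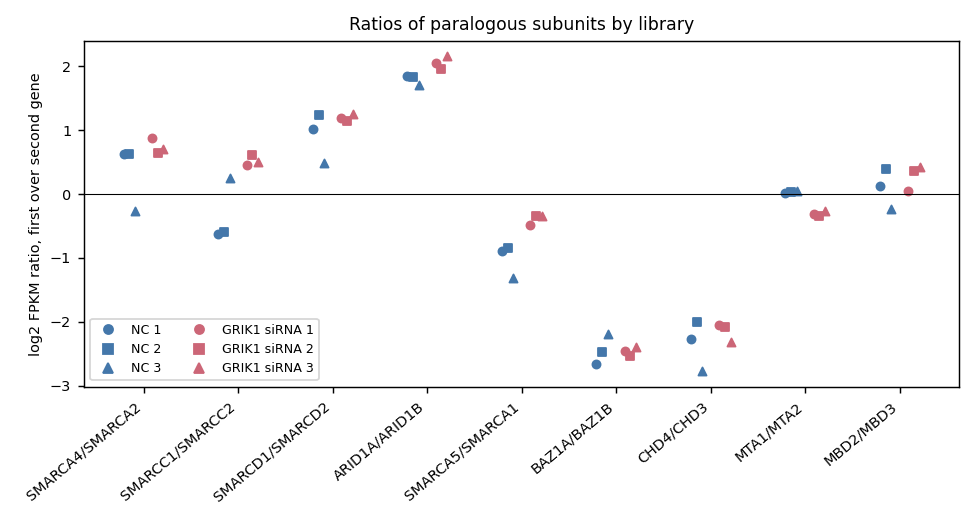
Log2 ratio of FPKM within each of the 9 paralog pairs (first gene over second) in each library, with NC in blue, siRNA-labelled libraries in red and triangles for library 3 of each group. MTA1/MTA2 and SMARCC1/SMARCC2 do not overlap between groups, and NC library 3 lies apart from the other NC libraries for SMARCC1/SMARCC2 (0.25 against -0.62 and -0.60).

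Beyond the members, 52 other subunits of these complexes and proteins of the SNF2 family were listed by function, and 48 of them were tested. The 4 others, ACTL6B, BCL11A, CECR2 and CHD5, were at or near 0 counts. With all libraries 1 was called higher and 0 lower, beside the 1.61% and 1.48% above, and 6 were higher and 6 lower at an unadjusted p under 0.05, beside 12.0% and 13.2% of all tested genes. The 1 was BICRA (GLTSCR1), the defining subunit of the non-canonical BAF complex. It was 8.11, 9.52 and 2.01 CPM in NC and 46.5, 31.9 and 38.4 CPM in the siRNA-labelled libraries, a log2 fold change of 2.58 (SE 0.47, edgeR adjusted p = 0.0387), or 2.14 without NC library 3 (SE 0.16, edgeR adjusted p = 1.55e-08). This was a larger fold change than that of any tested member. The call was lost when any 1 of the other 5 libraries was left out (edgeR adjusted p from 0.074 to 0.206), as for every tested gene.

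Without NC library 3, 10 of the 48 were called higher and 11 lower, which is 43.8% where the background was 35.2%. The next smallest p-values with all libraries were those of BTAF1, which removes TBP from DNA (log2 fold change 0.55, edgeR adjusted p = 0.0503), ATRX (log2 fold change 0.44, edgeR adjusted p = 0.0744), SHPRH (0.58 and 0.0779) and H2AZ2 (-0.63 and 0.0904), which encodes a form of H2A.Z. BTAF1 was 114, 101 and 98.6 CPM in NC and 149, 154 and 158 CPM in the siRNA-labelled libraries. H2AZ2 was 133, 126 and 189 CPM in NC and 91.0, 98.9 and 99.3 CPM. Its paralog H2AZ1, named after its values were seen, was 176, 190 and 399 CPM in NC and 139, 141 and 136 CPM, a log2 fold change of -0.88 (edgeR adjusted p = 0.137) or -0.40 without NC library 3 (edgeR adjusted p = 8.52e-06). Also named after its values were seen, TRRAP, the large scaffold of TIP60, was 87.8, 86.3 and 43.0 CPM in NC and 138, 131 and 136 CPM, a log2 fold change of 0.90 (edgeR adjusted p = 0.0986) or 0.64 without NC library 3.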

How the data were processed

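RNA of 3 NC libraries and 3 libraries labelled GRIK1 siRNA (siRNA-labelled) was sequenced after preparation with the VAHTS Universal V8 kit. Libraries were grouped by title. The authors deposited raw read counts per gene, which are whole numbers, and FPKM that the authors computed from these counts, the library total and the exonic length, a formula that gave 100% of the values. The submitters' processing notes name cutadapt 1.9.1, HISAT2, HTSeq and GRCh38, and the strand setting is not given in the sources used here. All 59 members are in GENCODE 29, 21 with the same start and end.

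Genes whose FPKM averaged 0.5 or more in the 6 libraries were tested (15870, or 15869 without NC library 3) with edgeR 4.0.16 in R 4.3.3, by the quasi-likelihood test with TMM scaling, no block and Benjamini-Hochberg adjustment over all tested genes, called at 0.05. CPM values are scaled by TMM. SE is that of the fitted log2 fold change. Paralog ratios were tested with a two-sided exact permutation test in scipy 1.17.1. The script was tested on simulated data. The members and lists were chosen with earlier results of these data known, so no pattern here is independent support for those results.

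Genes chosen for naming were the ATPases, members called with all libraries, members under the filter and the paralog pairs. Up to 8 members with the smallest p in each direction without NC library 3 were added. Of the other subunits, those called or with the 5 smallest p were chosen. For some of these genes only a part of the values is given. Alternatives were median-of-ratios scaling, DESeq2 1.42.0, no filter or 1 FPKM, robust fitting, the replicate block, a lowess offset on exonic length (span 0.3) and leaving out libraries. Combinations that leave out NC library 3 with another library, with 1 FPKM or with median-of-ratios scaling were added after the data were seen. With 11099909 to 14006968 counts per library, depth limits low genes most, and a count of 0 allows up to 3 counts (95% limit, counting error only).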

Additional observations from a re-analysis of the deposited data

How the results depend on the processing

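NC library 3 decided most calls, and the cause was not tested. Against 1 member called higher and 0 lower with all libraries, the counts were 6 and 2 with DESeq2 (5.43% and 5.14% of all genes), 4 and 1 without a filter (2.13% and 1.98%), 2 higher with a mean of at least 1 FPKM (2.16%), 19 and 4 with DESeq2 without NC library 3 (13.0% and 13.5%), and 20 and 7 with the length offset without it (17.2% and 18.3%). Leaving out each library in turn gave 0 to 23 higher and 0 to 4 lower, the highest values being those without NC library 3, and 0 of all tested genes were called without any 1 of the other 5 libraries. Against 23 and 4 without NC library 3, leaving out another library as well gave 14 to 24 higher (14 without NC library 2) and 3 to 6 lower, where all tested genes gave 11.0% to 17.9% higher and 11.5% to 19.9% lower. Of these fits, those without NC library 1 or 2 hold a single NC library, assumed to vary like the other group. The length offset gave 7 lower, and an absolute log2 fold change over 1 left 1 and 0. Other subunits, 48 tested with the filter of 0.5 FPKM, had 1 called higher and 0 lower with all libraries. They gave 2 higher with median-of-ratios scaling (1.64% of all genes), 5 and 1 with DESeq2, 2 and 2 without a filter and 2 higher at 1 FPKM. Without NC library 3 they gave 10 and 11 (16.9% and 18.3%), 9 and 11 with DESeq2, and 10 and 14 with the length offset. Over the left-out libraries they gave 0 to 10 higher and 0 to 11 lower. Shares of all genes not repeated here are those given above for the same setting.

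Deviations of same-numbered libraries from their group means correlated at -0.03, 0.03 and -0.02, and not every library correlated best with its own number. No pairing by replicate number was thus seen. NC library 3 stands apart, so the other NC libraries tend to deviate opposite to it, and this check cannot exclude pairing. With the replicate block, 0 members and 0 other subunits were called higher, likewise with the length offset and block together, and 0 of all tested genes were called in these fits. INO80 then had an edgeR adjusted p of 0.0923. No paralog ratio could pass 0.05 with the block, where the smallest p was 0.25.

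Of the named members, 32 tested genes gave 511 values over the alternatives, of which 412 kept direction and side of the threshold, 60 gained a call, 7 lost one and 32 reversed. Reversed log2 fold changes under the length offset were -0.27 for ARID1B, -0.0041 for BAZ1A, -0.044 for CHD3, 0.0068 for MBD2, -0.033 for SMARCA2 and 0.0058 for SMARCD2. With the offset and the replicate block they were -0.26 for ARID1B, -0.030 for CHD3, 0.014 for MBD2, -0.031 for SMARCA2 and 0.0060 for SMARCD2. With the offset and without NC library 3 they were -0.059 for ARID1A, -0.40 for ARID1B, -0.17 for CHD3 and -0.19 for CHD4. With DESeq2 without NC library 3 they were -0.16 for ARID1B, -0.10 for CHD3 and -0.10 for CHD4, and with a mean of at least 1 FPKM 0.0072 for MBD2 and 0.014 for SMARCD2. Over the left-out libraries the ranges were -0.16 to 0.19 for ARID1B, -0.032 to 0.12 for BAZ1A, -0.10 to 0.19 for CHD3, -0.11 to 0.42 for CHD4, -0.11 to 0.093 for MBD2, -0.16 to 0.022 for MTA1 and -0.042 to 0.036 for SMARCD2. The difference in ratio ranged from -0.13 to 0.11 for BAZ1A over BAZ1B and from -0.0084 to 0.37 for CHD4 over CHD3. DPF1 (13 to 18 counts) and DPF3 (74 to 132 counts over 17947 exonic bases) fell under the FPKM filter, and neither was called without it.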

Other observations

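Among the other subunits, a few not yet described also differed without NC library 3, and they are named after their values were seen. HELLS, a remodeler of the SNF2 family needed for DNA methylation, was 47.5, 51.4 and 22.4 CPM in NC and 29.2, 28.9 and 27.6 CPM in the siRNA-labelled libraries, a log2 fold change of -0.50 (edgeR adjusted p = 0.305) or -0.79 without NC library 3 (edgeR adjusted p = 9.6e-07). BCL11B, a zinc finger protein found with BAF complexes, was 112, 111 and 64.2 CPM in NC and 62.9, 68.4 and 70.6 CPM, a log2 fold change of -0.51 (edgeR adjusted p = 0.197) or -0.72 without NC library 3 (edgeR adjusted p = 9.45e-08). In both genes NC library 3 lay at or near the level of the siRNA-labelled libraries. The deacetylase HDAC1 of NuRD had little spread, at 124, 124 and 129 CPM in NC and 102, 100 and 104 CPM, a log2 fold change of -0.30 (edgeR adjusted p = 0.133) or -0.28 without NC library 3 (edgeR adjusted p = 0.000389).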
